A study of Mus musculus with 4 samples.

Results

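Type 1 innate lymphoid cells (ILC1) are lymphocytes of the liver that carry the activating receptor NKp46, the product of Ncr1, and no antigen receptor of T or B cells. They were followed here in single-cell RNA libraries of sorted CD45+ liver cells, and 2531 of 36286 kept cells were chosen as ILC1 by their raw counts of unique molecular identifiers (UMIs, tags that mark single captured RNA molecules). A cell was kept if it had 600 to 6000 detected genes and at most 5% of its UMIs from mitochondrial genes. A kept cell was then selected on 12 genes. It had at least 1 UMI of Ncr1, no UMI of the T cell genes Cd3e and Cd8b1 or the macrophage gene Csf1r, at least 2 UMIs summed over Itga1, Cxcr6, Cd200r1 and Tnfsf10, and more UMIs of these 4 genes than of the NK cell genes Eomes, Itga2, Klra4 and Klra8 together. Natural killer (NK) cells were taken by the mirror of this rule, with the sums exchanged, and numbered 2562, and 377 further Ncr1+ cells passed the same exclusions but met neither sum.

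The study asked how the loss of miR-146a, and of the chemokine gene Ccl5 on top of it, bears on liver immune cells in a mouse model of hepatocellular carcinoma. There were 4 libraries, 1 for each condition, from female C57BL/6 mice. The young WT library came from untreated mice of about 8 weeks. The other 3 libraries came from mice of 36 weeks that were WT, miR-146a-/- or miR-146a-/- Ccl5-/- (double knockout, DKO), and these mice had been injected with 25 mg/kg diethylnitrosamine (DEN, a liver carcinogen) on day 14 and given a choline-deficient diet with 60% fat (CDHFD) from weaning on day 21. The labels name no cell type to which the deletions are limited. The number of mice behind a library is not given in the sources used here.

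With 1 library for each condition, no difference between libraries has a replicate check, and the 95% intervals given for shares and ratios cover counting error only. The ratio intervals treat each UMI as independent and leave out the spread between cells. They are therefore too narrow where few cells hold most UMIs of a gene. Treated and young WT mice differ in age, carcinogen and diet, and the parts of these cannot be told apart. Values in all 4 libraries are given below in the order young WT, treated WT, miR-146a-/- and DKO.

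ILC1 and NK cells are the cytotoxic and interferon-producing arm of the innate lymphocytes and share NKp46 and NK1.1. In mouse liver, ILC1 stay in the sinusoids, depend on the transcription factors T-bet and Hobit, and are told from circulating NK cells by the integrin CD49a and the chemokine receptor CXCR6 and by the lack of Eomes and of most Ly49 receptors. They are known for killing through TRAIL, the product of Tnfsf10, and for early production of interferon-gamma.

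ILC1 numbered 647, 706, 437 and 741 cells in the 4 libraries, out of 10283, 8329, 7824 and 9850 kept cells. Their median depth was 6548, 8107.5, 7776 and 7382 UMIs and their median number of genes 2633, 2933, 2912 and 2797. Young WT ILC1 were the shallowest and treated WT ILC1 the deepest. NK cells had median depths of 6795, 8620.5, 9906 and 9044.5 UMIs. Summed over ILC1, the libraries gave 4302823, 5960880, 3610147 and 5732821 UMIs, and levels are given below as counts per 1e+06 of these UMIs (CPM). Between 109 and 150 barcodes were shared by any pair of libraries, and among ILC1 the young WT and miR-146a-/- libraries shared 1 barcode, the treated WT and miR-146a-/- libraries shared 1, and the other 4 pairs shared 0.

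The genes that chose the cells are given as description. Ncr1 stood at 1435, 1185, 1346 and 1330.4 CPM in ILC1 and at 1399.7, 1052, 1237 and 1158 CPM in NK cells. Both rules require an Ncr1 UMI and the depths differ, so no difference is read from these levels. Itga1, which encodes CD49a, stood at 368, 179.5, 275 and 277 CPM in ILC1 and Cxcr6 at 482, 519.9, 412 and 519 CPM. Cd200r1, an inhibitory receptor, was at 246, 266, 313 and 331 CPM and Tnfsf10 at 193, 186, 204 and 222 CPM. The Itga1 level was lowest in treated WT ILC1, and it was found there in 64.7% of the cells against 82.8%, 78.7% and 76.2% in the other libraries. Eomes stood at 6.51, 12.6, 16.6 and 14.3 CPM in ILC1 against 349, 369.95, 309.6 and 322 CPM in NK cells. The median of the 4-gene sum was 8, 9, 9 and 10 UMIs per cell, and 81.8%, 79.9%, 76.4% and 78.4% of ILC1 had no UMI of the 4 NK cell genes.

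Near the threshold the cells became less alike. The 1569 ILC1 with a sum of at least 6 and no UMI of the NK cell genes held 2911 CPM of Xcl1, a chemokine for cross-presenting dendritic cells, and 853 CPM of the granzyme gene Gzmc. The 94 ILC1 just inside, with a sum of 2 and no UMI of the NK cell genes, held 2448 CPM of Xcl1, 96.4 CPM of Gzmc and 354 CPM of the B cell gene Cd79a. The 83 cells just outside, with a sum of 1, held 1756 CPM of Xcl1 and 268 CPM of Gzmc. At the other limit, 45 ILC1 whose sum exceeded that of the NK cell genes by 1 held 2632 CPM of Xcl1, 50.7 CPM of Gzmc, 70.9 CPM of Zfp683 and 104 CPM of Cd3d, and 65 cells outside with equal sums of at least 1 held 2623 CPM of Xcl1, 61.3 CPM of Gzmc and 31.7 CPM of Zfp683. The 136 cells with no UMI of either set held 912 CPM of Xcl1. Xcl1 thus did not separate the cells on both sides of the limit between the sums. A further 811 cells met every condition but the absence of Cd3e, and with 736 CPM of Cd3d and 134 CPM of Trac they carried both genes at levels above those of ILC1.

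The markers Xcl1 and Gzmc were not used by the rule and are given as description. Xcl1 stood at 2232, 3016, 2600.4 and 2811 CPM in ILC1 and at 648, 966, 1023 and 833 CPM in NK cells. Gzmc stood at 244, 983, 722 and 711 CPM in ILC1 and at 27.6, 13.8, 6.09 and 5.70 CPM in NK cells. Both were higher in ILC1 than in NK cells of every library. Markers that vary along with the rule genes had to differ between cells divided by those genes. These values are therefore no independent check of the name. Tbx21, which encodes T-bet, was present in both at 362, 332, 304 and 277 CPM in ILC1 and 498, 350.3, 361 and 316 CPM in NK cells.

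Markers of other cells were read in ILC1 as whole lists. The 17 T cell markers summed to 1109, 782, 807 and 905 CPM in ILC1 and to 4016, 4512, 4307 and 3098 CPM in the cells outside the ILC1 and NK rules. Cd3g was the most abundant at a mean of 258 CPM, Cd3d was at 13.7, 6.21, 14.4 and 20.9 CPM and Trac at 11.2, 7.88, 6.92 and 8.20 CPM, and Cd3e and Cd8b1 were at 0 by the rule. Trbc1 at 138, 156, 168 and 175 CPM and Trbc2 at 174, 198, 180.3 and 179.7 CPM, the constant segments of the T cell receptor beta chain, were present too. Of 12 T cell markers tested between ILC1 and NK cells, Bcl11b, Cd3g, Trbc1 and Trbc2 were higher in ILC1 and Cd247, Cd28, Cd3d, Trac and Trdc lower (median log2 ratio 0.20), where 19.0% of all 11021 genes tested were higher and 21.1% lower. The 13 markers of ILC2 and ILC3 summed to 102, 102, 89.7 and 88.6 CPM, most of it Gata3 at a mean of 73.5 CPM, and Il1rl1, Il5, Il13, Il22 and Il17a had no UMI in ILC1 of any library.

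The 10 B cell markers summed to 368, 413, 443 and 368 CPM in ILC1 and 2406, 1551, 1244 and 1844 CPM in the remaining cells, with Ighm the most abundant at a mean of 182 CPM and 0 of the 10 absent. The 14 monocyte and macrophage markers summed to 602, 611, 337 and 404 CPM against 3903, 6147, 7682 and 8916 CPM, with Cst3 the most abundant at a mean of 251 CPM and Csf1r at 0 by the rule. The 10 dendritic cell markers summed to 1407, 1719, 1394 and 1547 CPM, most of it Cd74 at a mean of 1099.8 CPM, against 12218, 15067, 11817 and 14756 CPM in the remaining cells, and 0 of the 10 were absent. These lists were lower in ILC1 than in the remaining cells. Against NK cells the B cell list was higher in ILC1 (294, 139, 117 and 289 CPM in NK cells), as was the dendritic cell list (1182, 633, 391 and 615 CPM), and the monocyte and macrophage list was lower (1565, 922, 843 and 1058 CPM). The 12 hepatocyte and endothelial markers summed to 122, 161, 154 and 134 CPM, led by the endothelial gene Pecam1 at 99.7 CPM. The 8 neutrophil markers summed to 1.86, 0.336, 12.5 and 10.5 CPM, led by S100a8 with Ly6g at 0, and the 6 erythroid and platelet markers to 51.4, 2.68, 2.22 and 2.79 CPM, led by Hbb-bs with Ppbp at 0. Monocyte, neutrophil and erythroid markers differed between the libraries. Values without cells holding any of 5 myeloid and B cell genes are given below beside the shares and the gene counts between libraries. The ILC1 to NK gene counts were not recomputed that way, and the part of the erythroid markers was not tested.

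ILC1 and NK cells of the same libraries were compared gene by gene over the 4 libraries, leaving out the 12 genes of the rules. Because both kinds of cell were divided by those 12 genes, genes that vary along with them had to differ, and the counts describe how far apart the divided cells were. Of 11021 genes tested, 2096 were higher in ILC1 (19.0%) and 2323 lower (21.1%) by edgeR's quasi-likelihood test with library as a block, two-sided, at a Benjamini-Hochberg adjusted p under 0.05. Of these, 2068 were higher and 2110 lower in 4 of 4 libraries, and 205 and 185 differed at least 4-fold. The median log2 ratio over all genes tested was 0.00. DESeq2's Wald test called 1313 higher, of which 1309 were among the 2096.

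Of 15 ILC1 markers that the rule did not read, 14 were higher in ILC1 and 1, Cd69, was lower, with a median log2 ratio of 2.03. The list was chosen with earlier results of these data known, and members that vary along with the rule genes had to differ. The count is therefore a description and no independent check. Zfp683, which encodes Hobit, stood at 216, 132, 188 and 156 CPM in ILC1 and 4.13, 2.90, 3.78 and 1.74 CPM in NK cells, a log2 ratio of 5.71 (SE 0.115, edgeR with Benjamini-Hochberg adjusted p 3.42e-08, higher in 4 of 4 libraries). Inpp4b, a lipid phosphatase gene, stood at 654, 668, 688 and 713 CPM in ILC1 and 57.3, 50.3, 61.5 and 54.5 CPM in NK cells, a log2 ratio of 3.53 (SE 0.0661, edgeR with Benjamini-Hochberg adjusted p 3.42e-08, higher in 4 of 4 libraries). Il7r, the receptor chain for the survival cytokine IL-7, stood at 159.7, 132, 117 and 133 CPM in ILC1 and 21.7, 32.5, 38.2 and 35.2 CPM in NK cells. The lowest of the ILC1 libraries lay above the highest of the NK sums for each of these genes. Cd69, an early activation and residency marker, was the exception, with 213, 232, 101 and 138 CPM in ILC1 and 302, 279, 142 and 199 CPM in NK cells (log2 ratio -0.52, SE 0.0620, edgeR with Benjamini-Hochberg adjusted p 0.000232, lower in 4 of 4 libraries). In both kinds of cell Cd69 was lower in the miR-146a-/- and DKO libraries than in the WT libraries.

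All 13 tested NK cell markers outside the rule were lower in ILC1, with a median log2 ratio of -3.57, and the same limits hold for this list. S1pr5, the receptor by which NK cells leave tissue, stood at 4.65, 3.86, 5.54 and 4.71 CPM in ILC1 and 308, 125, 188 and 164 CPM in NK cells. Cma1, a chymase gene, stood at 1.86, 2.01, 0.554 and 1.40 CPM against 292, 135, 155 and 200.2 CPM, a log2 ratio of -7.03 (SE 0.156, edgeR with Benjamini-Hochberg adjusted p 4.87e-08, lower in 4 of 4 libraries). Itga4, an adhesion chain for vascular endothelium, was also lower at 133, 174, 198 and 171 CPM against 869, 632, 694 and 712 CPM, and so was Itgam, at 12.5, 10.7, 21.6 and 21.8 CPM against 275, 129.6, 172 and 185 CPM. ILC1 thus nearly lacked the egress receptor and the chymase and held part of the integrin levels.

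**Figure D1:**
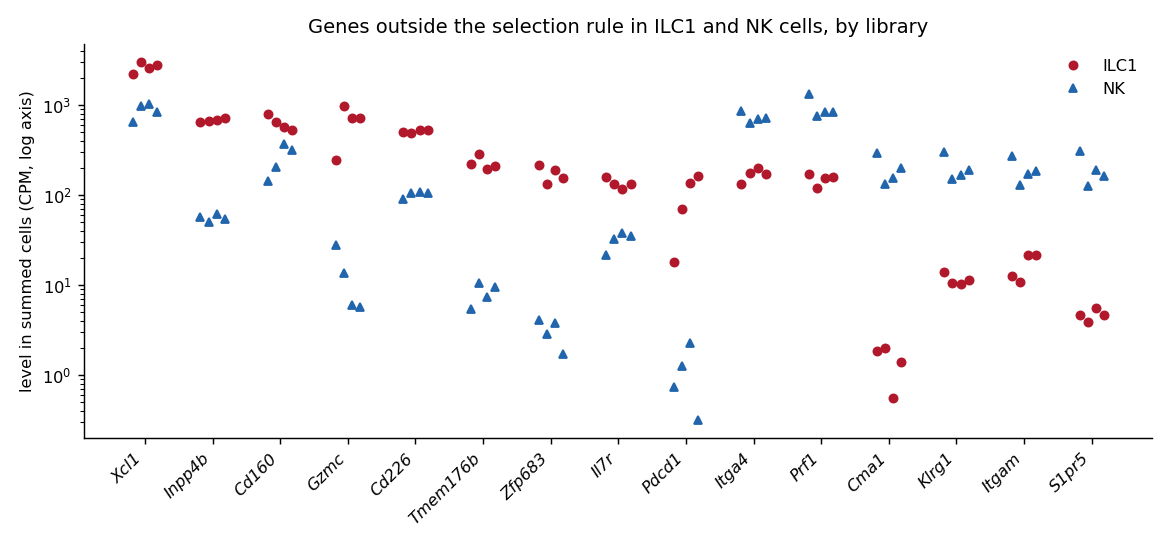
Levels of 15 genes outside the selection rule in ILC1 (circles) and NK cells (triangles), in CPM on a log axis, with the 4 libraries of a gene side by side in the order young WT, treated WT, miR-146a-/- and DKO. Circles lie above triangles in every library for the genes from Xcl1 to Pdcd1, and below them for the genes from Itga4 to S1pr5.

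Among the 10 genes furthest above NK cells, Pdcd1, which encodes the inhibitory receptor PD-1, stood at 18.1, 70.3, 136 and 164 CPM in ILC1 and 0.738, 1.27, 2.31 and 0.317 CPM in NK cells. Its log2 ratio was 6.32 (SE 0.289, edgeR with Benjamini-Hochberg adjusted p 1.12e-06, higher in 4 of 4 libraries). Within ILC1 it was lowest in young WT and highest in the miR-146a-/- and DKO libraries, while NK cells stayed below 3 CPM throughout. The others were Igkv9-120, Asphd2, Arnt2, Tmem273, Gm43042, Ccdc80, Ly6g5b, Tcrg-V5 and Zfp683. Of these, Arnt2, a transcription factor gene, stood at 17.0, 29.7, 58.4 and 64.7 CPM in ILC1 and at most 0.591 CPM in NK cells, and Tmem273 at 109, 51.2, 131 and 122 CPM in ILC1. The immunoglobulin segment Igkv9-120 came from almost single cells, since 1 cell held between 93.3% and 100% of its UMIs in the ILC1 of each library. Tcrg-V5, a gamma chain segment of the T cell receptor, is not in the T cell list above. It stood at 19.1, 13.3, 10.8 and 16.4 CPM in ILC1 and at most 0.591 CPM in NK cells. Its UMIs came from 70, 67, 32 and 80 ILC1.

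The 10 genes furthest below NK cells were Serpinb9b, Clip4, Anxa8, Rhpn1, Cma1, Fkbp10, Chit1, Ptprk, Khdc1a and Gm4814. Serpinb9b, a granzyme inhibitor gene, gave 1 UMI in young WT ILC1 and 0 in the other ILC1, against 797, 244, 142 and 217 UMIs in NK cells. Clip4 gave 0 UMIs in ILC1 of all 4 libraries and 44, 32, 26 and 45 in NK cells, and Anxa8 gave 0 against 34, 16, 16 and 37. These genes were therefore near or below detection in ILC1 at this depth.

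The inhibitory and costimulatory receptors were shifted towards ILC1, with 12 of 18 tested members higher, 3 lower and a median log2 ratio of 0.84. Lag3, an inhibitory receptor for MHC class II, stood at 132, 134, 149.9 and 141 CPM in ILC1 and 14.2, 15.4, 54.4 and 38.3 CPM in NK cells. Cd226, an activating adhesion receptor, stood at 503, 495, 525 and 533 CPM and 89.8, 107, 108 and 106 CPM. Both were several times higher in ILC1, whereas Tnfrsf9, the costimulatory receptor 4-1BB, had a log2 ratio of -0.02 (SE 0.199) that did not pass (edgeR with Benjamini-Hochberg adjusted p 0.935, higher in 3 of 4 libraries). Of 29 interferon-stimulated genes, 15 were higher and 1, Usp18, lower (median 0.67), and of 16 MHC class I genes 13 were higher and 0 lower (median 0.23). Some markers of other cells were higher in ILC1 as well, Cd79b, Fcmr and Ighm of 10 tested B cell markers (median 1.22), Cd74, H2-Aa and H2-Ab1 of 6 tested dendritic cell markers (median 1.11), and Alb, Apoe and Pecam1 of 5 tested hepatocyte and endothelial markers (median 0.68). Zbtb46 of the dendritic cell markers was lower, and of 9 tested monocyte and macrophage markers Cst3 and Lyz2 were higher and 4 lower (median 0.28). Over all genes tested 19.0% were higher and 21.1% lower, so counts such as 2 of 9 and 3 of 10 are not read as an excess. The part of these markers in the result was not tested.

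The cytotoxic effectors divided, with 4 of 14 tested members higher and 9 lower (median -0.52). Gzmb stood at 2510.4, 1474, 2368 and 2295 CPM in ILC1 and 1535, 866, 814 and 972 CPM in NK cells, and it was higher in ILC1 (log2 ratio 0.99, SE 0.129, edgeR with Benjamini-Hochberg adjusted p 0.000391, higher in 4 of 4 libraries). Gzma stood at 2678, 943, 3387 and 3004 CPM in ILC1 and 10302, 6483, 7009 and 7769.7 CPM in NK cells, and it was lower (log2 ratio -1.86, SE 0.236, edgeR with Benjamini-Hochberg adjusted p 0.000341, lower in 4 of 4 libraries). Prf1, the pore-forming perforin, stood at 171, 121, 153 and 158 CPM against 1335, 758, 833 and 845 CPM. ILC1 thus held more granzyme B and C and less granzyme A and perforin transcript than NK cells of the same libraries. Gzmk, the granzyme K gene, was at 1.16, 2.18, 0.831 and 1.05 CPM in ILC1, which is 3 to 13 UMIs per library.

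Of 20 cell cycle genes, 19 were lower in ILC1 than in NK cells (median -1.18), among them Mki67 with 45.6, 72.1, 32.1 and 30.4 CPM in ILC1 and 44.4, 157, 138 and 144 CPM in NK cells. In young WT the Mki67 levels of both were close, and in the treated libraries NK cells lay higher. Of 10 tested cytokine genes 5 were higher and 2 lower (median 0.52). Il2 stood at 38.1, 19.0, 31.9 and 27.7 CPM in ILC1 and 1.92, 1.09, 5.04 and 5.70 CPM in NK cells, and Csf1, the macrophage growth factor, at 18.1, 9.56, 33.0 and 39.4 CPM and 2.51, 1.82, 0.420 and 0.792 CPM, both higher in ILC1 of every library, while Ifng, the interferon-gamma gene, was lower at 211, 193, 79.2 and 81.3 CPM against 374, 320.4, 153 and 141 CPM. Of 23 cytokine receptor genes 11 were higher and 7 lower (median 0.34). Il18r1, a chain of the IL-18 receptor, was among the lower ones with 44.2, 66.4, 23.3 and 30.7 CPM in ILC1 against 169, 145.8, 87.6 and 95.7 CPM, and so was its partner Il18rap with 81.1, 94.1, 64.0 and 74.7 CPM against 327, 225, 222 and 224 CPM. Of 28 tested transcription factors 12 were higher and 14 lower (median -0.09). Tox, a factor of innate lymphoid development and of T cell exhaustion, was higher at 496, 579, 651 and 649.8 CPM against 124, 196, 305 and 231 CPM, as was Ahr, the aryl hydrocarbon receptor, at 87.8, 98.8, 78.9 and 88.8 CPM against 18.3, 29.4, 25.0 and 28.8 CPM.

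The share of ILC1 among kept cells was 6.29% (5.83% to 6.78%) in young WT, 8.48% (7.89% to 9.10%) in treated WT, 5.59% (5.09% to 6.12%) in miR-146a-/- and 7.52% (7.01% to 8.06%) in DKO, with exact Clopper-Pearson intervals. It was highest in treated WT and lowest in miR-146a-/-. The differences were 2.18 percentage points for treated over young WT (Newcombe interval 1.43 to 2.95), -2.89 for miR-146a-/- over treated WT (-3.68 to -2.11) and 1.94 for DKO over miR-146a-/- (1.21 to 2.66). These were 0.761, -1.89 and 1.71 points when cells with any UMI of Lyz2, C1qa, Cd79a, Ms4a1 or S100a8 were left out of ILC1 and NK cells.

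Of ILC1 and NK cells together, ILC1 made up 41.8% (39.3% to 44.3%), 55.2% (52.4% to 57.9%), 49.1% (45.8% to 52.4%) and 53.9% (51.2% to 56.6%). Young WT was thus the library in which NK cells outnumbered ILC1 the most, and treated WT and DKO held more ILC1 than NK cells. The differences were 13.4 points for treated over young WT (9.67 to 17.0), -6.06 for miR-146a-/- over treated WT (-10.3 to -1.78) and 4.79 for DKO over miR-146a-/- (0.577 to 8.98). With Cd3d+ cells left out the last 2 intervals held 0, at -8.71 to 0.217 and -0.723 to 8.14, and with cells thinned to 4000 UMIs they held 0 as well, at -8.38 to 0.908 and -0.265 to 8.87. NK cells made up 8.76%, 6.89%, 5.79% and 6.44% of kept cells. Their differences, in the same order of comparisons, were -1.87 (-2.64 to -1.10), -1.10 (-1.85 to -0.349) and 0.647 (-0.0675 to 1.35) points. The share of ILC1 among both kinds of cell thus also moves with the number of NK cells.

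**Figure D2:**
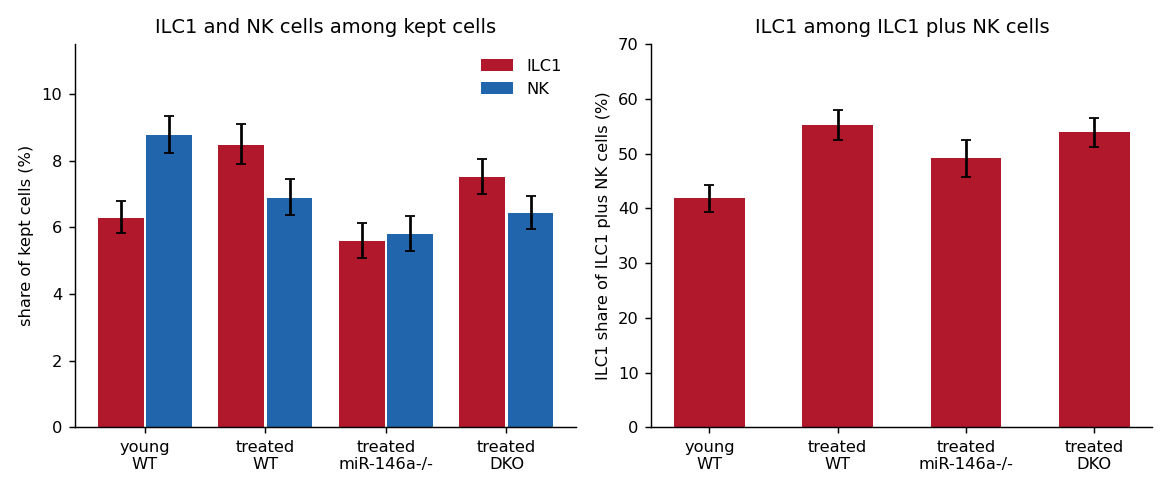
Shares of ILC1 and NK cells among kept cells (left) and of ILC1 among ILC1 plus NK cells (right) in each library, in percent, with exact 95% binomial intervals that cover counting error only. ILC1 rank from 5.59% of kept cells in miR-146a-/- to 8.48% in treated WT, and from 41.8% to 55.2% of ILC1 plus NK cells.

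Treated WT was compared with young WT for what age, DEN and CDHFD together go with in ILC1. Of 6552 genes with a mean of at least 20 CPM in ILC1, 190 were at least 1.5-fold higher in treated WT (2.90%) and 202 at least 1.5-fold lower (3.08%). Without genes that were as far apart the same way in the cells outside the ILC1 and NK rules, an alternative chosen after seeing the data, 133 were lower, fewer than were higher. With TMM scaling 225 were higher and 144 lower, so which direction held more genes depends on the setting. Dscam, a cell adhesion gene known from neurons, stood at 10.7, 151, 85.6 and 94.9 CPM, a log2 ratio of 3.81 (95% interval 3.395 to 4.28), against 1.86 in NK cells. Ccdc184 stood at 9.76, 101, 37.4 and 45.7 CPM, a log2 ratio of 3.36 (2.92 to 3.86). Both genes were low in young WT ILC1 and higher in all 3 treated libraries, with the highest level in treated WT. In the remaining cells the ratios were 1.88 for Dscam and 2.37 for Ccdc184, and Ccdc184 had 3 and 23 UMIs in young and treated WT NK cells (3.02, 1.51 to 5.62). Spp1, which encodes osteopontin, stood at 13.0, 83.7, 36.3 and 59.1 CPM (2.68, 2.28 to 3.11) and the interferon-inducible gene Ifi211 at 8.37, 39.9, 47.1 and 43.4 CPM (2.24, 1.74 to 2.80). Their ratios were 0.25 and 1.77 in NK cells and 3.19 and 0.80 in the remaining cells, so both were higher outside ILC1 too, Spp1 mostly in the remaining cells. Pclaf, Gzmc, Fabp5, a fatty acid binding protein gene, and Ccl1, a chemokine gene, were also among the 8 largest, but 1 cell held 49.8% of the Fabp5 and 34.9% of the Ccl1 UMIs in treated WT ILC1.

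The lowest ratios were those of Mmp9, Gcnt2, Dtx1, Atp8a2, Pygl, Pdzd2, Cdh17 and Kcnj8. Mmp9, a matrix-degrading protease gene, stood at 76.7, 10.4, 6.65 and 14.8 CPM, a log2 ratio of -2.87 (-3.30 to -2.49), and Atp8a2, a phospholipid flippase gene, at 251, 49.2, 138 and 120.2 CPM (-2.35, -2.55 to -2.17). Mmp9 was low in all 3 treated libraries, whereas Atp8a2 lay between the WT libraries in miR-146a-/- and DKO. Dtx1, a regulator of Notch signalling, stood at 95.8, 16.8, 32.7 and 19.0 CPM (-2.51, -2.84 to -2.19) and Gcnt2 at 61.4, 9.23, 6.37 and 8.20 CPM (-2.72, -3.18 to -2.31). The ratio of Mmp9 in the remaining cells was -3.24, so a lower level was found there too, and in NK cells Mmp9 had 12 UMIs in young and 1 in treated WT, too few to read. Atp8a2, Gcnt2 and Dtx1 were lower outside ILC1 too, by less. Their ratios were -1.39, -1.02 and -0.75 in NK cells and -1.52, -0.85 and -0.77 in the remaining cells. Pygl (-1.51 in NK cells and 0.30 in the remaining cells) and Pdzd2 (0.03 and -0.95) were not lower in both.

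The 3 granzyme genes of ILC1 differed in direction. Gzmc was higher in treated than in young WT (log2 ratio 2.01, 1.91 to 2.11), while Gzma (-1.505, -1.55 to -1.46) and Gzmb (-0.77, -0.81 to -0.73) were lower, and these were the 3 of 13 tested cytotoxic effectors past 1.5-fold (median -0.07 against -0.05 over all genes tested). Gzma also belongs to the list of NK cell markers. Of 8 tested NK cell markers Klra7 and Zeb2 were higher and Gzma and Klra9 lower in ILC1 (median -0.36, against -0.73 in NK cells). Gzma and Gzmb were also lower in NK cells of treated WT (-0.67 and -0.83), while in the remaining cells Gzma, Gzmb and Gzmc were all higher (0.88, 0.96 and 1.52). The Gzmc sum of NK cells was lower too (-0.997), but it rested on 187 UMIs from 1.78% of young WT NK cells and 76 UMIs from 5.92% of treated WT NK cells, so the share of cells ran the other way. The receptors Pdcd1 (1.95, 1.60 to 2.32), Tnfrsf9 (1.57, 1.44 to 1.70) and Tigit (0.87, 0.71 to 1.03), at 102, 187, 180.3 and 251 CPM, were higher in treated WT ILC1, and Icos and Entpd1 lower, of 15 receptors tested (median 0.02). Tnfrsf9 stood at 138, 409, 342 and 363 CPM in ILC1 and 255, 273, 313 and 298 CPM in NK cells, so it was below NK cells in young WT ILC1 and above them in the treated ones.

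**Figure D3:**
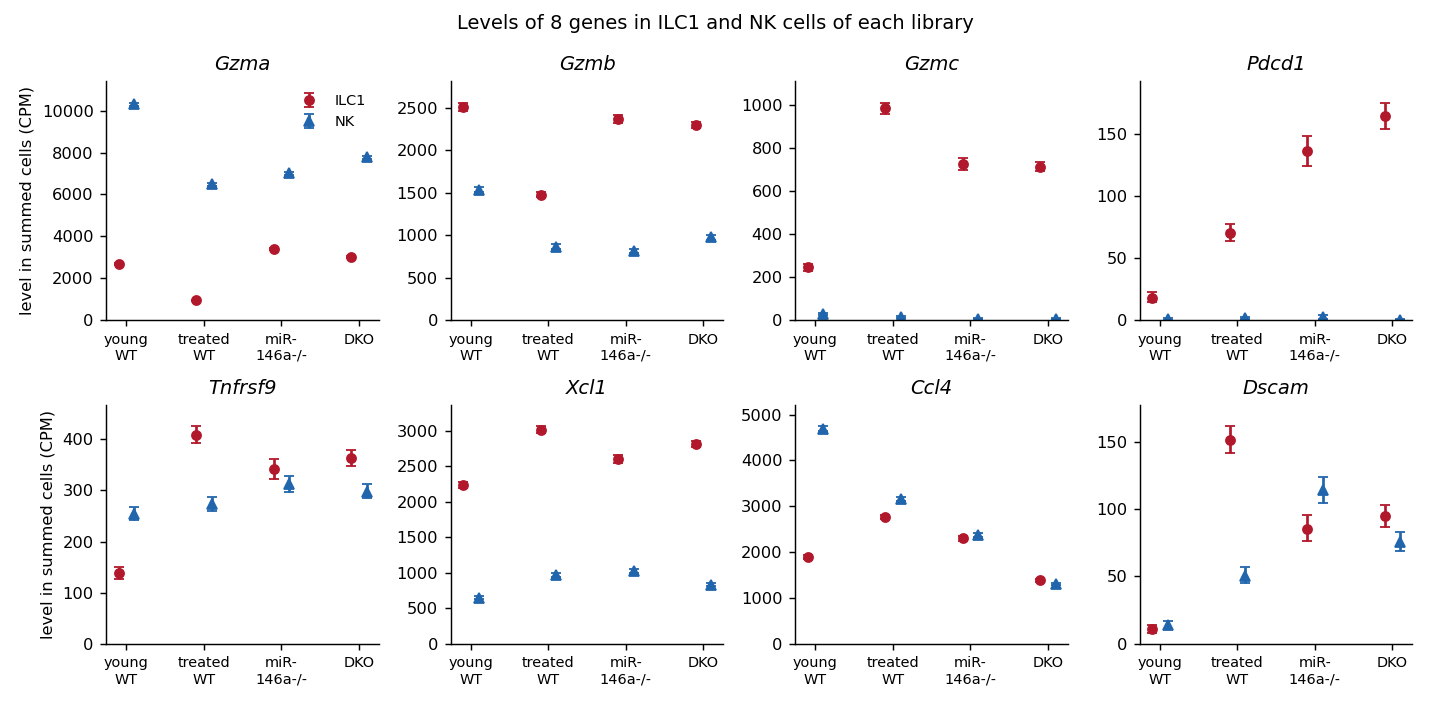
Levels of 8 genes in ILC1 (circles) and NK cells (triangles) of each library, in CPM, with exact 95% Poisson intervals that cover counting error only. Gzma and Gzmb of ILC1 are lowest in treated WT, Gzmc is highest there, Pdcd1 is near 0 in NK cells throughout, and Ccl4 is lowest in DKO.

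Of 17 tested cell cycle genes, 12 were higher in treated WT ILC1 and 0 lower (median 0.96). Some of them were carried by few cells. Ube2c was found in 13 young and 34 treated WT ILC1, with 41.9% and 20.8% of its UMIs in 1 cell, and Pclaf in 18 and 52. After thinning, 2.57%, 3.78%, 1.62% and 1.37% of ILC1 had an Mki67 UMI, and the intervals of young and treated WT overlapped (1.47% to 4.14% and 2.48% to 5.49%). Top2a, the DNA-unwinding topoisomerase, stood at 31.8, 93.8, 43.8 and 45.7 CPM and Stmn1, a tubulin regulator, at 55.1, 152, 68.4 and 71.0 CPM. Both were highest in treated WT and intermediate in the knockouts, and the median of the list was 0.83 in NK cells and 0.43 in the remaining cells. Of 26 transcription factors 7 were higher, among them Tcf7, a factor of stem-like and early lymphoid cells, at 73.0, 116, 56.8 and 64.2 CPM, Bach2, a repressor of effector genes, at 73.9, 159, 91.7 and 107 CPM, and Batf, an AP-1 family factor, at 57.4, 119, 85.3 and 98.2 CPM, while Hic1 and Zfp683 were lower (median 0.11). Of 17 genes of the miR-146a target pathway, Nfkb1, Nfkb2, Nfkbia, Rel and Relb were higher and 0 lower (median 0.08). Nfkbia also belongs to the list of immediate-early and heat shock genes. Nfkb2, an NF-kB subunit gene, stood at 28.6, 77.7, 57.6 and 59.5 CPM, lowest in young WT.

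Klf3, P2rx7 and Zfp683 were lower among 14 residency and egress genes (median -0.32), and so was Itga1, which the rule used and which is no result. List medians between libraries include rule genes where these are members. Hcst, a signalling adaptor, was lower among 17 NK1.1 and NKG2 receptor genes (median -0.28). Of 16 MHC class I genes and 14 glycolysis genes 0 were past 1.5-fold (medians 0.06 and 0.18), and of 21 interferon-stimulated genes 1, Ly6a, was higher (median -0.06). Of 19 cytokine receptors Il2ra and Il18r1 were higher and Tgfbr1 lower (median 0.00). Il2ra, the high-affinity chain for IL-2, stood at 19.99, 55.5, 28.5 and 31.4 CPM, highest in treated WT. Of 6 chemokine genes Ccl1 and Ccl3 were higher and 0 lower (median 0.49), of 9 cytokine genes Csf2 was higher and Csf1 and Il2 lower (median 0.05), and of 27 immediate-early and heat shock genes Atf3, Fosb and Nfkbia were higher (median 0.11). Of 4 tested monocyte and macrophage markers Ly6c2 and Lyz2 were higher as well, and so were Cd79a of 4 tested B cell markers and Pecam1 of 2 tested hepatocyte and endothelial markers. Of 7 tested T cell markers Cd247, Cd3g and Lat were lower and 0 higher (median -0.43). Without ILC1 holding any UMI of Lyz2, C1qa, Cd79a, Ms4a1 or S100a8, which left 560 young and 517 treated WT cells, 226 of 6540 genes were higher and 261 lower. Without Cd3d+ cells 187 were higher and 211 lower. The part of the other markers was not tested.

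The comparison of miR-146a-/- with treated WT asks what goes with the loss of the microRNA in treated mice, and it shares the treated WT library with the one above. miR-146a is known as a brake on signalling from Toll-like and interleukin-1 receptors, through its targets Irak1 and Traf6. It has no gene of its own in the matrices, so its absence could not be read. The mature 5p strand lies on mouse chromosome 11 at 43374435-43374456, minus strand (RefSeq, GRCm38.p6), and is shown with its seed, bases 2 to 8, in capitals. Below it are an Irak1 and a Traf6 site from their 3′ UTRs (GENCODE M21), in which capitals mark 8 bases, the 7 that pair with the seed and the A after them. Irak1 (chromosome X, 74013914-74023918, minus strand) has 2 such sites in its 3′ UTR and Traf6 (chromosome 2, 101678429-101701669, plus strand) has 4.
miR-146a-5p: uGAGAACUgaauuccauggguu
Irak1 site: gactcagaggtcaaAGTTCTCAtgct
Traf6 site: ccctggaaggcttaAGTTCTCAagta

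Irak1 stood at 66.2, 61.9, 65.6 and 75.2 CPM in ILC1 and Traf6 at 34.2, 34.1, 28.0 and 33.7 CPM. The ratios of miR-146a-/- over treated WT were 0.08 (-0.16 to 0.32) for Irak1 and -0.28 (-0.64 to 0.07) for Traf6, and both intervals hold 0, so a difference was not detectable at this depth. Of 6441 tested genes with an annotated 3′ UTR, 330 carry the 8-base match, and their median log2 ratio was 0.00 against 0.02 over all 6441. Of the 330, 3 were at least 1.5-fold higher (0.909%) and 15 lower (4.55%), against 1.40% and 3.03% of the 6441. The 7-base match without the condition on the A was carried by 885 genes with a median of 0.02. A match of these letters is a description of the sequence and no measure of targeting.

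In miR-146a-/- ILC1, 103 of 6552 genes were at least 1.5-fold higher than in treated WT (1.57%) and 203 at least 1.5-fold lower (3.10%). Without genes that were as far apart the same way in the remaining cells, chosen after seeing the data, 127 were lower. Gzma was higher, with a log2 ratio of 1.84 (1.80 to 1.89) against 0.11 in NK cells, and so was Gzmb (0.68, 0.64 to 0.73, against -0.09 in NK cells). With these, the levels of miR-146a-/- ILC1 lay near those of young WT for Gzmb and above them for Gzma. Of 8 tested NK cell markers Gzma and Klra7 were higher and Klf2 lower in ILC1 (median 0.40, against 0.17 in NK cells). Csf1 was higher (1.77, 1.32 to 2.27), as were Atp8a2 (1.49, 1.28 to 1.70), Tmem273, Art2b, an ADP-ribosyltransferase gene, Itgad, an integrin chain, and Zmat4. In NK cells Itgad (1.36), Zmat4 (1.20) and Art2b (2.41, on 5 and 25 UMIs) were higher as well, with ratios near or above those of ILC1 (1.20, 1.04 and 1.28), and Tmem273 had 2 and 4 UMIs there, too few to read. Csf1 ran the other way in NK cells (-1.89), at low levels of 1.82 CPM in treated WT and 0.420 CPM in miR-146a-/-. Atp8a2 was at 0.04 in NK cells, and the remaining cells had ratios of -0.17 for Csf1 and -0.65 for Atp8a2. Itgad stood at 72.5, 36.1, 82.8 and 76.1 CPM and Zmat4 at 115, 41.4, 85.6 and 86.5 CPM, each lowest in treated WT. Ccl1 had the largest ratio (2.28), but its UMIs in miR-146a-/- came from 11 of 437 cells, with 64.9% of them in 1 cell.

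Immediate-early and heat shock genes, which respond within minutes to receptor signals and to stress, were the list with the most members apart, with 20 of 27 lower in miR-146a-/- ILC1 and 0 higher (median -1.31). Fos, an AP-1 subunit of the early response, stood at 598, 603, 60.1 and 78.0 CPM, Jun at 1132, 1088, 280.04 and 404 CPM and Dusp1, a MAP kinase phosphatase, at 741, 723, 165 and 209 CPM. Nr4a1, an early gene of receptor signalling, stood at 149.9, 181, 29.6 and 39.4 CPM and the chaperone gene Hspa1a at 388, 346, 53.2 and 86.2 CPM. Each was lower in both knockout libraries than in both WT libraries. The list was lower in other cells too, with medians of -0.97 in NK cells and -0.76 in the remaining cells. Markers of monocytes and macrophages were lower in miR-146a-/- ILC1 as well, with Cst3, Lyz2 and Ly6c2 of 4 tested past 1.5-fold. Apoe of 2 tested hepatocyte and endothelial markers was lower too. Without cells holding any UMI of Lyz2, C1qa, Cd79a, Ms4a1 or S100a8, 138 of 6540 genes were higher and 230 lower in miR-146a-/- ILC1, and the immediate-early list was not read under that setting.

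Members of the NF-kB circuit were among the lower genes, since Nfkbia, Nfkbiz, Rel and Tnfaip3 of the 17 miR-146a pathway genes were lower and 0 higher (median -0.21). The median of these genes was -0.33 in NK cells and -0.11 in the remaining cells. Nfkbia also belongs to the immediate-early and heat shock list above. Tnfaip3, which encodes the brake A20, stood at 318, 471, 150.1 and 206 CPM and Nfkbia, which encodes the inhibitor of NF-kB alpha, at 303, 606, 309 and 369 CPM. Nfkbia of miR-146a-/- lay near its young WT level and Tnfaip3 below it. In NK cells the ratios were -1.53 and -1.63. Of 9 tested cytokine genes, Ifng (-1.28, -1.47 to -1.09) and Tnf (-1.02, -1.33 to -0.72) were lower and Csf1 and Il2 higher (median -0.05). The Ifng ratio was -1.07 in NK cells and -0.64 in the remaining cells.

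Of 17 cell cycle genes 9 were lower in miR-146a-/- than in treated WT ILC1 and 0 higher (median -0.83, against -0.31 in NK cells and -0.40 in the remaining cells). Some of these too rested on few cells, with Ube2c in 7 and Pclaf in 10 miR-146a-/- ILC1. Of 26 transcription factors 8 were lower, Tcf7 (-1.03, -1.26 to -0.80), Bach2, Bhlhe40, Ikzf2, Nr4a1, Nr4a2, Nr4a3 and Rora, and Hic1 and Id3 were higher (median -0.13). Nr4a1 also belongs to the immediate-early and heat shock list. Rora, a nuclear receptor of innate lymphocytes, stood at 56.7, 76.0, 23.5 and 32.4 CPM, lower in both knockout libraries than in both WT libraries. Among residency and egress genes Cd69, Klf2, Rgs1 and Rgs2 were lower (median 0.17), and Itga1, a gene of the rule, is given as description above. Klf2, which drives expression of egress receptors, stood at 279, 238, 91.4 and 72.6 CPM and Rgs1, a regulator of G protein signalling, at 2792, 2817, 1430.1 and 2015 CPM. Klf2 of both knockout libraries lay below both WT libraries, with a ratio of -0.83 in NK cells as well.

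The inhibitory receptor Pdcd1 was higher again in miR-146a-/- (0.95, 0.76 to 1.14), as was Entpd1, while Icos, Cd28 and Cd274 were lower, of 15 tested (median -0.05). In the cells outside the ILC1 and NK rules Pdcd1 stood at 27.5, 163, 148 and 97.3 CPM, with a ratio of -0.14. Of 21 interferon-stimulated genes Ifit1 and Isg15 were lower (median -0.09), and the interferon-inducible GTPase gene Tgtp1 stood at 40.2, 36.9, 3.32 and 3.66 CPM, low in both knockout libraries. The ratio of Tgtp1 was -3.43 in ILC1, -2.08 in NK cells and -2.70 in the remaining cells. Of 16 MHC class I genes 0 and of 14 glycolysis genes 1, Slc2a1, were past 1.5-fold (medians 0.02 and 0.00).

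**Figure D4:**
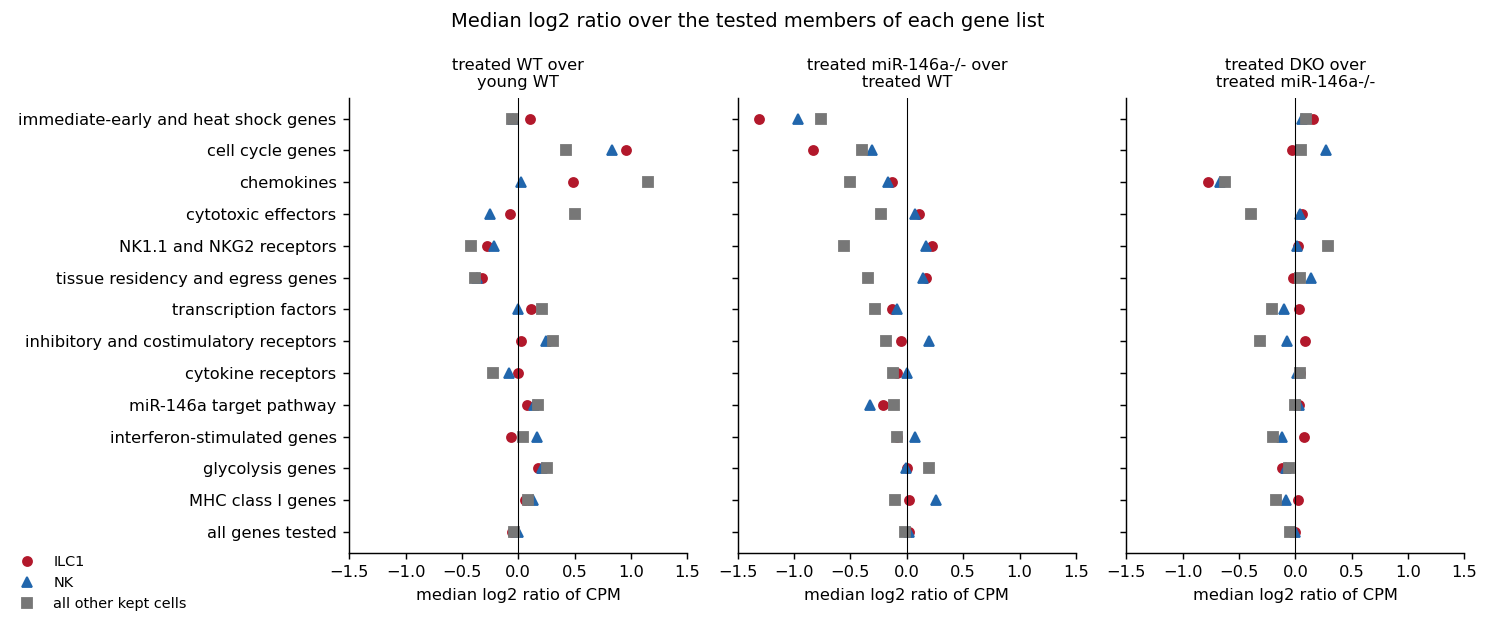
Median log2 ratio of CPM over the tested members of 13 gene lists and over all genes tested, for the 3 comparisons between libraries, in ILC1 (circles), NK cells (triangles) and all other kept cells (squares). In ILC1 the immediate-early and heat shock genes lie lowest for miR-146a-/- over treated WT at -1.31, and the cell cycle genes lie at 0.96 for treated over young WT and at -0.83 for miR-146a-/- over treated WT.

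For DKO over miR-146a-/-, which shares the miR-146a-/- library with the comparison above, the deleted gene was read first. Ccl5 stood at 11983, 9866, 13407 and 74.5 CPM in ILC1 and 18564, 12470.04, 17893 and 94.7 CPM in NK cells. It was high in the 3 libraries with an intact gene and 179.8-fold lower in DKO ILC1 (log2 ratio -7.49, -7.63 to -7.35). Thinned to 2000 UMIs per cell, 98.1%, 98.1%, 98.1% and 13.1% of ILC1 had a Ccl5 UMI (unthinned 97.4%, 98.6%, 99.1% and 38.2%). In B cells, taken by Cd79a and Ms4a1, the thinned shares were 8.65%, 10.8%, 5.49% and 2.22% at median depths of 5674.5, 7047.5, 7176 and 6850 UMIs. The level fits the DKO label, and the share of DKO ILC1 with a Ccl5 UMI lay above that of B cells of the same library.

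Few other genes were apart. Of 6552 genes, 36 were at least 1.5-fold higher in DKO ILC1 (0.549%) and 26 at least 1.5-fold lower (0.397%). Without cells holding any UMI of Lyz2, C1qa, Cd79a, Ms4a1 or S100a8, 50 of 6540 genes were higher and 36 lower. Of 6 tested chemokine genes, the deleted Ccl5 included, 4 were lower, Ccl1, Ccl3, Ccl4 and Ccl5, and Cxcl10 was higher (median -0.77). For Ccl1, 1 miR-146a-/- cell held 64.9% of the UMIs of that library. Ccl3 stood at 434, 695, 669 and 381 CPM (-0.81, -0.89 to -0.73) and Ccl4 at 1899, 2755, 2299 and 1381 CPM (-0.74, -0.78 to -0.69), both chemokine genes that neighbour Ccl5 on chromosome 11. Ccl3 and Ccl4 of DKO ILC1 lay below every other library, and their ratios in NK cells were -0.48 and -0.86. Xcl1 (0.11, 0.08 to 0.15) stayed within 1.5-fold.

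Camk2b, a subunit gene of a calcium-dependent kinase, stood at 63.2, 88.7, 72.3 and 219 CPM, highest in DKO (1.59, 1.40 to 1.79), with like ratios of 1.52 in NK cells and 1.41 in the remaining cells. Slfn8, a Schlafen family gene, stood at 99.0, 66.4, 74.5 and 25.8 CPM, lowest in DKO (-1.53, -1.83 to -1.23), against -1.32 in NK cells. Parl stood at 33.7, 43.4, 13.6 and 35.6 CPM and Ifi208 at 133, 74.5, 18.3 and 42.7 CPM, each lowest in miR-146a-/-. Fabp5, Ifit1 and Cxcl10 were among the largest ratios but rested on few cells, since 1 DKO cell held 73.9%, 38.6% and 27.6% of their UMIs. The remaining genes of the 8 largest in each direction were Ube2c and Prss2, which were higher, and Ccl1, Egr1, Ly6a, Dhx40, Cd79a and Apoe, which were lower. In miR-146a-/-, 1 cell held 65.9% of the UMIs of Ube2c, 36.8% of Apoe and 25.5% of Cd79a. Without genes of which 1 cell held at least 25% of the UMIs in either library, chosen after seeing the data, 28 genes were higher and 20 lower.

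Other gene lists held few members past 1.5-fold between miR-146a-/- and DKO. Of 13 cytotoxic effectors, 19 cytokine receptors, 15 inhibitory and costimulatory receptors, 14 residency and egress genes and 16 MHC class I genes 0 were past 1.5-fold (medians 0.06, 0.04, 0.08, -0.02 and 0.02). Of 27 immediate-early and heat shock genes 2, Atf3 and Hspa1a, were higher and 1, Egr1, lower (median 0.16), and of 17 cell cycle genes Ube2c was higher and Pclaf lower (median -0.03), each found in at most 16 ILC1 of either library. Gzma, Gzmb and Gzmc had ratios of -0.17 (-0.21 to -0.14), -0.05 (-0.08 to -0.01) and -0.02 (-0.09 to 0.05). The Gzma and Gzmb levels of DKO ILC1 thus lay nearer to those of miR-146a-/- than to those of treated WT ILC1. For Gzmc, 1 miR-146a-/- cell held 29.5% of the UMIs of that library, so no such order is read. Of 17 genes of the miR-146a pathway 0 were past 1.5-fold (median 0.03), and of 26 transcription factors Zbtb16 was lower (median 0.03). Of 8 tested NK cell markers 0 were past 1.5-fold (median -0.24). Ly6c2 of 4 tested monocyte and macrophage markers was higher (median 0.20). Cd79a of 4 tested B cell markers and Apoe of 2 tested hepatocyte and endothelial markers were lower, as named above.

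Granzymes and receptors were unevenly spread over single ILC1. Thinned to 2000 UMIs, 41.3%, 18.3%, 45.4% and 39.3% of ILC1 had a Gzma UMI (unthinned 47.1%, 23.7%, 50.8% and 44.9%), against 1.5004%, 1.33%, 1.32% and 0.444% of B cells. Gzmc was found in 12.2%, 23.4%, 19.9% and 21.995% of thinned ILC1 (unthinned 20.6%, 37.1%, 33.6% and 35.4%) and in at most 0.296% of B cells of any library. Pdcd1 was found in 2.57%, 10.6%, 20.8% and 21.995% of thinned ILC1 (unthinned 7.73%, 17.8%, 38.7% and 38.9%) and in at most 0.296% of B cells. Treated WT thus had the fewest ILC1 with Gzma, and the miR-146a-/- and DKO libraries the most with Pdcd1. For Gzma, DKO lay above young WT in summed level and below it in share, so no order is read between those libraries. Thinning left out 24, 18, 5 and 9 shallower ILC1.

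Few cells carried most of the Gzmc. The 65, 71, 44 and 75 ILC1 with the most Gzmc UMIs held 92.6%, 88.4%, 90.6% and 88.6% of them, and in miR-146a-/- 1 cell held 29.5%. For Gzma the same numbers of top cells held 58.2%, 92.1%, 55.7% and 59.2%, so that in treated WT the transcript was both lower and concentrated in fewer cells. Gzmb, with 35.5%, 51.0%, 38.9% and 39.2% in the top cells, showed the same library as the most uneven. Xcl1 was spread widely, with a UMI in 87.3%, 89.5%, 90.0% and 91.9% of thinned ILC1 and 38.4% to 42.7% of UMIs in the top cells.

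ILC1 were also divided by Il7r, since liver ILC1 with and without the IL-7 receptor are known. After thinning, 22.2%, 21.9%, 19.0% and 15.6% of ILC1 had an Il7r UMI (unthinned 43.9%, 42.2%, 40.0% and 34.8%), against 1.15%, 0.444%, 1.099% and 1.33% of B cells. The 138, 151, 82 and 114 cells with an Il7r UMI held 1743, 401, 1927 and 1390.4 CPM of Gzma, and the 485, 537, 350 and 618 cells without held 3070.1, 1254, 4120 and 3410.2 CPM. Gzmb was at 1848, 901, 1506 and 1697 CPM with and 2888, 1713, 2663 and 2512 CPM without an Il7r UMI. Both of these granzyme genes were lower in the Il7r+ cells of every library. Gzmc stood at 68.8, 719, 872 and 504 CPM with and 275, 966, 576 and 715 CPM without an Il7r UMI, so it was lower in the Il7r+ cells of 3 libraries and higher in those of miR-146a-/-, where 1 cell held 29.5% of the Gzmc UMIs of unthinned ILC1. Tcf7 ran the other way, at 119.6, 152, 159 and 136 CPM with and 63.9, 96.8, 22.9 and 44.5 CPM without an Il7r UMI, as did Ltb, which encodes lymphotoxin beta, at 688, 940.4, 1043 and 1000 CPM and 555, 804, 789 and 731 CPM. Tmem176b, a membrane protein gene, stood at 254, 351, 280.5 and 276 CPM and 174, 259, 143 and 198 CPM. Gzma and Gzmb of the Il7r+ cells were lowest in treated WT, as in the other cells. Cells without an Il7r UMI can express it below detection at 2000 UMIs, and the division was chosen after the values were seen, so these are descriptions with no test.

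**Figure D5:**
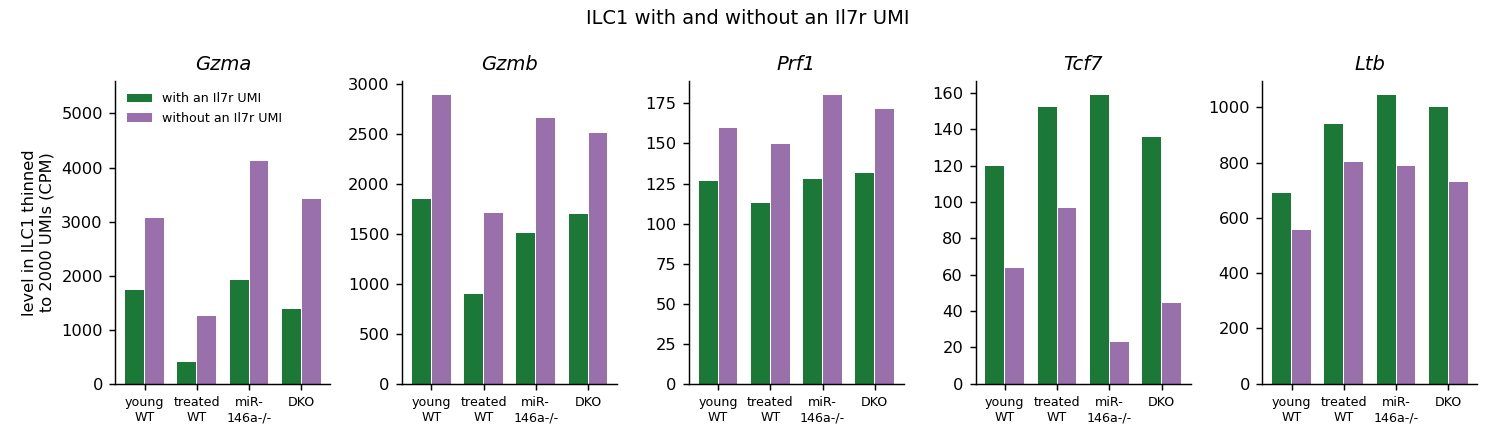
Levels of Gzma, Gzmb, Prf1, Tcf7 and Ltb in CPM, in ILC1 thinned to 2000 UMIs with (green) and without (purple) an Il7r UMI, by library. Gzma, Gzmb and Prf1 are lower and Tcf7 and Ltb higher in the cells with an Il7r UMI in each of the 4 libraries.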

How the data were processed

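The deposited files hold raw UMI counts per gene and cell, made by the authors from 10x Genomics 5′ v2 libraries with Cell Ranger 7.0.1 and mm10, per the submitters' processing notes. The 4 libraries held 10985, 9120, 8393 and 10623 cell barcodes with 90756272, 103165826, 88706063 and 103147246 UMIs. Cells with 600 to 6000 genes and at most 5% mitochondrial UMIs were kept. ILC1 and NK cells were taken by the 12-gene rule with a minimum sum of 2 UMIs. B cells used as background had at least 1 UMI each of Cd79a and Ms4a1 and none of Ncr1 and Cd3e. No doublet caller was run, and the upper gene limit and alternatives without cells holding other markers stand in its place. The members, gene lists and comparisons were chosen with earlier results of these data known.

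Raw counts were summed per library and cell type. Between libraries, log2 ratios of CPM used a prior of 0.5 counts, genes with a mean of at least 20 CPM and a limit of 1.5-fold, with conditional binomial 95% intervals. Levels have exact Poisson intervals, shares exact Clopper-Pearson intervals and differences of shares Newcombe intervals. ILC1 and NK sums were compared with edgeR 4.0.16 in R 4.3.3 (TMM, filterByExpr, quasi-likelihood test, library as block, adjusted p under 0.05), leaving out the 12 rule genes. These p-values measure the spread over 4 libraries that differ in condition. DESeq2 1.42.0 was an alternative. Shares of cells with a UMI were taken after thinning cells to 2000 UMIs with seed 1. Other tools were Python 3.11.15, numpy 2.4.6, scipy 1.17.1, pandas 2.3.3 and matplotlib 3.10.9. The ratio and edgeR steps were tested on simulated data.

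Genes named in the text are the rule genes and markers, the genes the study names, the 8 largest ratios in each direction for each pair of libraries, leaving out mitochondrial, ribosomal, antigen receptor and unnamed genes, the 10 largest called ILC1 to NK ratios in each direction with the same sign in 4 of 4 libraries, and of each list the 4 most abundant members and those past 1.5-fold. Any other gene was chosen after its values were seen. Alternatives changed the cell filters, the minimum sum, Cd3d, other cell markers, thinning, scaling, the prior, the CPM minimum, averaging over cells, the test, the gene filter, the block and the libraries used.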

Additional observations from a re-analysis of the deposited data

Results flagged for a closer look

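For the genes named here, the level in ILC1 and the level in NK cells differed in opposite directions between the same 2 libraries, each by at least 1.5-fold and with a counting interval that did not hold 0. With 1 library for each condition the difference between the cell types was not tested. The counting intervals leave out the spread between cells. The values are log2 ratios of CPM, first in ILC1, then in NK cells, then their difference. For treated over young WT they were 2.01, -0.997 and 3.01 for Gzmc, 1.05, -1.57 and 2.62 for the monocyte marker Ly6c2, 0.68, -0.88 and 1.56 for the transcription factor gene Zeb2, and -1.47, 0.82 and -2.29 for Zmat4. For miR-146a-/- over treated WT they were -0.82, 1.17 and -1.99 for Dscam and -1.20, 1.18 and -2.39 for Spp1. For DKO over miR-146a-/- they were 2.02, -0.90 and 2.93 for Ifit1, -1.05, 1.33 and -2.38 for Ly6a and -0.66, 0.81 and -1.48 for the cell cycle gene Pclaf. Cd79a, which marks B cells, gave 0.75, -2.32 and 3.07 for treated over young WT and -0.92, 2.33 and -3.24 for DKO over miR-146a-/-. The UMIs of Pclaf came from 10 miR-146a-/- and 16 DKO ILC1, with 25.2% and 24.4% of them in 1 cell, and 1 DKO cell held 38.6% of those of Ifit1. For Cd79a 1 ILC1 held 29.4% in young WT and 25.5% in miR-146a-/-. For Gzmc the share of cells with a UMI did not differ in opposite directions: it was 1.78% of NK cells in young and 5.92% in treated WT, or 0.449% and 2.45% after thinning to 2000 UMIs, and 20.6% and 37.1% of ILC1, or 12.2% and 23.4% after thinning.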

How the results depend on the processing

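Of 132 values recomputed under other settings, 113 stayed within their counting interval or within 1.5 times the main count, 19 did not, and no difference of shares changed sign. In treated over young WT, the 190 higher genes were fewer than the 202 lower ones, but higher genes were the more numerous with TMM scaling (225 and 144), with no CPM minimum and without genes apart in the remaining cells. Without cells holding Lyz2, C1qa, Cd79a, Ms4a1 or S100a8, the difference in ILC1 share of kept cells was 0.761 points for treated over young WT and -1.89 for miR-146a-/- over treated WT. Thinned to 2000 UMIs, the latter was -1.98, and the difference in ILC1 share of ILC1 plus NK cells was 18.9 points for treated over young WT. The cause of these shifts was not tested. The remaining alternatives gave 1.45 to 2.78, -3.22 to -2.55 and 1.66 to 2.004 points of kept cells, and 11.55 to 14.9, -6.76 to -3.74 and 3.71 to 5.93 points of ILC1 plus NK cells, for the 3 comparisons in turn.

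With a minimum of 50 CPM, 3542 genes were tested, and 85 were higher and 86 lower in treated than young WT, 38 and 99 in miR-146a-/- than treated WT, and 11 and 9 in DKO than miR-146a-/-. With no minimum, 17744 genes gave 3084 and 2763, 2101 and 3529, and 2773 and 1947. Leaving out genes apart the same way in the remaining cells, chosen after seeing the data, gave 133 lower in treated WT and 127 lower in miR-146a-/-.

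Between ILC1 and NK cells, DESeq2 called 1313 higher and 1582 lower, and edgeR without the library block 1544 and 1553. With each library left out in turn, edgeR called 1567 to 1864 higher and 1707 to 2076 lower. No paired analysis was possible between libraries because each condition has 1. Depth limits genes under 20 CPM and shares of cells with a UMI.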
